A study of Mus musculus with 4 samples.

Results

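The 10 genes described here belong to the TNF superfamily and were examined in single cells of mouse bone marrow, by looking up their gene symbols in the 4 deposited count matrices. They are 10 of the 31053 genes of these matrices. The 6 ligands are Tnf, Ltb, Cd40lg, Tnfsf8, Tnfsf11 and Tnfsf13b, and the 4 receptors are Tnfrsf1a, Tnfrsf1b, Cd40 and Tnfrsf13c. Their unique molecular identifiers (UMIs, which mark captured molecules) were summed in each library over each cell class.

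Cells came from 2 TLR9-/- mice and 2 wild-type (WT) mice of strain C57BL/6, with 1 library per mouse, called TLR9-/- 1, TLR9-/- 2, WT 1 and WT 2. The labels name no treatment, and no age is given in the sources used here. TLR9-/- mice carry a disrupted Tlr9 gene in every cell, and per the methods the genotypes were bred in separate cages. Marrow of femur and tibia was separated on Ficoll, and transcripts were read from their 5′ ends after 10x Chromium capture, in 2 experiments that each held 1 mouse of each genotype. Values in 4 libraries are always given in the order TLR9-/- 1, TLR9-/- 2, WT 1, WT 2. With 2 mice per genotype, the p-values below measure the spread between 2 libraries only.

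TNF superfamily ligands are trimeric membrane proteins, some of which are also shed. They bind receptors that recruit TRAF adaptors or death-domain proteins and activate NF-kB, MAP kinases or caspases. In marrow they are known for steering inflammation, B-cell survival, T-cell help and the formation of osteoclasts. TNF is the pleiotropic inflammatory member and signals through TNFR1 (Tnfrsf1a) and TNFR2 (Tnfrsf1b). Lymphotoxin beta (Ltb) forms a membrane complex with lymphotoxin alpha and binds the receptor Ltbr. CD40 ligand (Cd40lg) of activated helper T cells engages CD40 on B cells and antigen-presenting cells. CD30 ligand (Tnfsf8) binds CD30. RANKL (Tnfsf11) is the osteoclast differentiation factor, with RANK (Tnfrsf11a) as its receptor and osteoprotegerin (Tnfrsf11b) as its decoy. BAFF (Tnfsf13b) is a B-cell survival factor, and Tnfrsf13c encodes the BAFF receptor.

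The libraries held 10781, 8918, 10573 and 8895 cells after filtering, with 50204578, 63958243, 31210188 and 41384657 UMIs. The median cell had 2545, 3618, 1759 and 2287 UMIs, so the median over all cells was higher in both TLR9-/- libraries. Within classes the medians overlapped in some, as in B cells (1118, 1649, 1012 and 1355) and neutrophils (2012.5, 3162, 2204 and 2518). In others they did not, as in monocytes (4424, 4841, 3352 and 3831). Every level below is scaled to the UMIs of its class, or of the genes tested there. Between 118 and 203 cell barcodes were shared by any 2 libraries. Clusters were named by marker genes, and 313 of 39167 cells (0.799%) stayed unnamed, since they clustered with plasma cells but had a larger share of another class's markers. Although labelled as mononuclear cells, the libraries held 8.17% to 22.3% neutrophils and 8.25% to 15.8% erythroid cells. B-lineage cells made up 29.45% and 24.5% of the TLR9-/- libraries and 47.5% and 47.3% of the WT libraries. T cells made up 5.33% and 3.44% against 2.04% and 1.35%, and monocytes 13.3% and 14.7% against 7.75% and 7.21%. Granulocyte-monocyte precursors, a mixed class that finer clusters split into granulocyte and monocyte precursors, made up 8.90% and 10.1% against 3.02% and 4.99%. Tlr9 itself had 41, 48, 120 and 97 UMIs, and its log2 fold change over all cells was −1.98 ± 0.35 (SE, n = 2 libraries per genotype, edgeR adjusted p = 0.117). Whether the remaining Tlr9 reads lie outside the disrupted stretch was not analysed here.

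Ltb and Tnf are neighbours on chromosome 17 of GRCm38. Ltb (ENSMUSG00000024399) spans chr17:35194439-35196320 on the plus strand and Tnf (ENSMUSG00000024401) spans chr17:35199381-35202007 on the minus strand, 3060 bases apart. Lta follows at chr17:35203165-35205351. Their upstream sequences are shown because the UMIs of these neighbours were spread differently over the cell classes, as described next. T cells and neutrophils carried both. Each is the part of RefSeq's promoter window on GRCm38.p6 that lies before the annotated gene, 5′ to 3′ on the gene's strand, namely chr17:35194257-35194438 for Ltb (182 bases) and chr17:35202008-35202257 for Tnf (250 bases). Capitals mark matches to the letters of an NF-kB site (GGG, any 2 bases, then TTTCC) or TATAAA of a TATA box, searched on both strands.
Ltb: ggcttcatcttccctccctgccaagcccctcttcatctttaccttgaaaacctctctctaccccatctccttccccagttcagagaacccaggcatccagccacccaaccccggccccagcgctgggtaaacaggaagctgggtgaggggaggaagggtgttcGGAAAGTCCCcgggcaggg
Tnf: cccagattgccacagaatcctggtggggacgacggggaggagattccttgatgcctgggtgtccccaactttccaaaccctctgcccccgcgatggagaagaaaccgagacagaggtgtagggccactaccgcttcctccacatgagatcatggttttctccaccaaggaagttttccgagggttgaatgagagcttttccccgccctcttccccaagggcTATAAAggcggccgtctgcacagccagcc
The Ltb window holds 1 match to the NF-kB letters, on the other strand, which starts 19 bases before the annotated gene. The Tnf window holds 1 TATAAA, which starts 29 bases before the gene. Over all 32851 windows of 250 bases, 1.41% hold the NF-kB letters and 12.4% hold TATAAA. Of the 8 genes matched in the RefSeq table, Tnfsf11 has the TATA letters on the other strand, and the windows of Tnfrsf13c, Tnfrsf1a, Tnfrsf1b, Tnfsf13b and Tnfsf8 hold neither set of letters.

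The 10 genes fell into lymphoid and myeloid sources. Cd40lg lay almost wholly in T cells, which held 87.5% to 95.1% of its UMIs across the 4 libraries. T cells held 36.6% to 50% of the Tnfsf8 UMIs. B cells held 38.5% to 60.1% of the Ltb UMIs, and T cells a further 6.58% to 28.5%. B cells also held 47.0% to 63.9% of the Cd40 UMIs and 51.4% to 63.6% of the Tnfrsf13c UMIs. Neutrophils held 70.8% to 79.8% of the Tnfsf13b UMIs. Neutrophils, monocytes and granulocyte-monocyte precursors together held 59.1% to 84.1% of the Tnf UMIs, 75.7% to 85.8% of the Tnfrsf1a UMIs and 69.1% to 83.9% of the Tnfrsf1b UMIs. These shares depend on how many cells of each class a library held, and over whole libraries fewer cells of a type and less RNA per cell cannot be told apart.

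**Figure D1:**
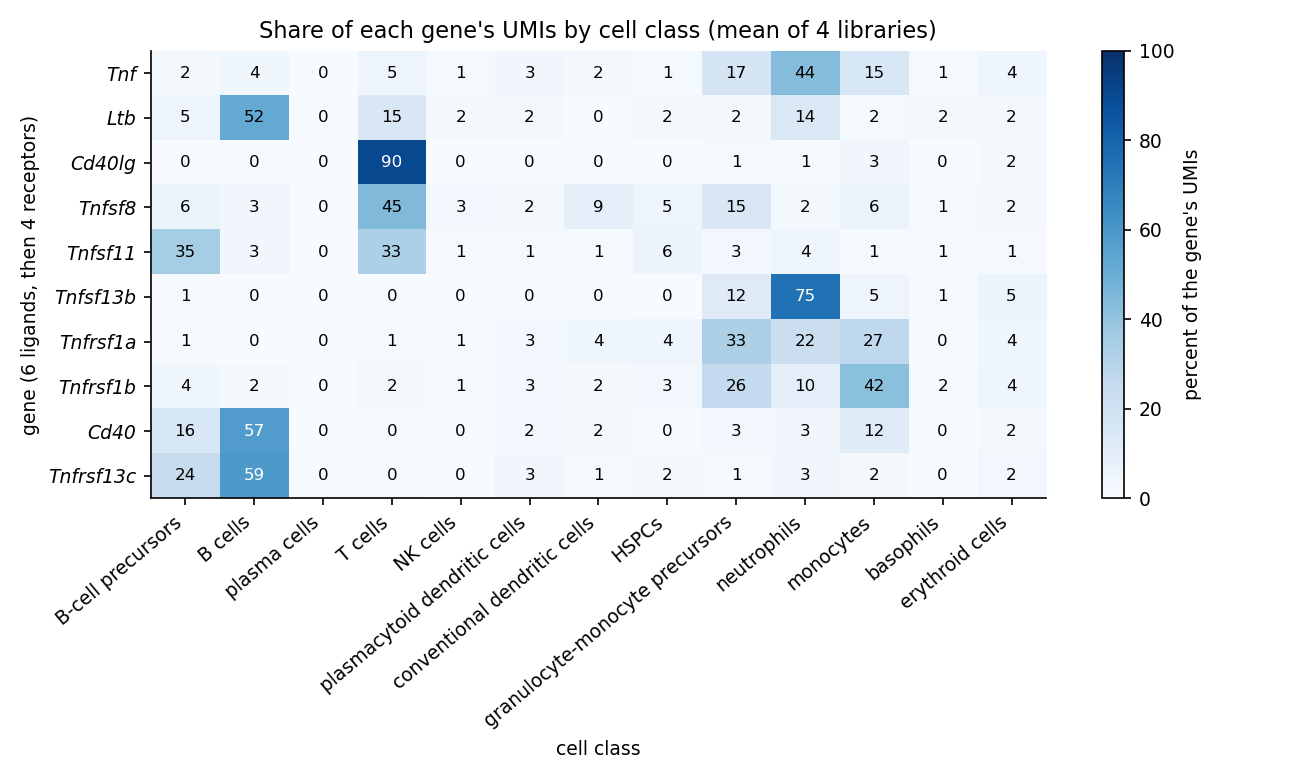
Heat map of the percent of each gene's UMIs (color, 0 to 100, printed in each cell as a whole number) that lay in each of 13 cell classes (columns), as the mean over 4 libraries, with 6 ligands above 4 receptors (rows). T cells held 90% of Cd40lg, neutrophils 75% of Tnfsf13b and 44% of Tnf, and B cells 52% of Ltb, 57% of Cd40 and 59% of Tnfrsf13c. The small macrophage, megakaryocyte and mesenchymal classes and unnamed cells are left out.

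Genotypes were compared within each class, and over all cells, with edgeR's quasi-likelihood test on the summed UMIs, two-sided and adjusted by Benjamini-Hochberg over every gene tested. A gene was called at an adjusted p under 0.05. None of the 10 genes was called in any of these 18 fits, which had no block for library number. Calls made with such a block are given in the closing section. Tests of whether an effect differed between classes are given further on. Over all cells, 0.268% of all genes tested were called. DESeq2 on the same sums called 2 of the 10 over all cells, Tnfrsf1a and Tnfrsf13c, among 5.98% of genes called, and none in a class. The percent of all genes called by edgeR was 0.499% in neutrophils, 0.225% in B cells, 0.227% in T cells, 0.55% in B-cell precursors and 0.496% in monocytes. It was 0.0815% in NK cells, 0.18% in plasmacytoid dendritic cells, 0.0779% in conventional dendritic cells, 0.356% in HSPCs, 0.399% in granulocyte-monocyte precursors, 0.207% in basophils and 0.0664% in erythroid cells. Levels below are counts per 1000000 UMIs of the genes tested in the class (CPM) after TMM scaling. Levels named plain CPM are per 1000000 UMIs of all genes of the class. Small classes had fewer genes tested, so only plain CPM can be set side by side between classes. A log2 fold change is TLR9-/- over WT ± SE with n = 2 libraries per genotype. An edgeR fold change of the 10 genes is given only where every library had at least 20 UMIs of the gene in the class.

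Tnf UMIs numbered 480, 473, 176 and 196 over all cells. In neutrophils they numbered 180, 218, 48 and 124, which gave 34.3, 23.9, 17.0 and 16.1 CPM. Both TLR9-/- libraries thus lay above both WT libraries in neutrophils, with a log2 fold change of 0.81 ± 0.24 (edgeR adjusted p = 0.323). Over all cells the levels were 9.55, 7.39, 5.64 and 4.75 CPM, with a log2 fold change of 0.71 ± 0.22 (edgeR adjusted p = 0.214). T cells carried Tnf at a level like that of neutrophils. The mean over 4 libraries was 22.4 plain CPM in T cells and 22.6 in neutrophils, and the ranges overlapped. T cells held only 32, 28, 10 and 4 Tnf UMIs, at 26.2, 29.5, 22.6 and 13.9 CPM, and monocytes 91, 62, 35 and 18. After every cell was thinned to 1000 UMIs, 3.87% and 2.31% of TLR9-/- neutrophils and 2.04% and 1.73% of WT neutrophils had a Tnf UMI. Erythroid cells, taken as a class that lacks these genes, had one in at most 0.263% of cells.

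Ltb had the most UMIs of the 10 genes, with 4570, 6674, 3542 and 3889. Its levels were ordered by genotype in opposite directions in B cells and in their precursors. At equal depth the shares of precursors with an Ltb UMI overlapped, as given further on. B cells had 1095, 1456, 926 and 718 CPM, with both TLR9-/- libraries highest (log2 fold change 0.63 ± 0.26, edgeR adjusted p = 0.869). With a block for the library number Ltb was called in B cells (edgeR adjusted p = 0.0341). The share of all genes called with that block is not given here. The class held 2 main clusters in unequal parts. The first, led by class II genes, Ighd and Fcer2a, was 46.0%, 76.1%, 46.2% and 51.0% of B cells, and its Ltb level was 1541, 1673, 1300 and 1082 plain CPM. The other, led by Ms4a1 and Cd72, was 51.6%, 23.4%, 49.5% and 47.1%, at 700.2, 728, 629 and 436 plain CPM. TLR9-/- 2 thus had the most cells of the first cluster, and within either of these 2 clusters both TLR9-/- libraries lay above both WT libraries. In a further small cluster of 28, 7, 79 and 37 cells the genotypes overlapped, at 691, 285, 557 and 319 plain CPM. B-cell precursors had 22.8, 34.3, 38.1 and 40.8 CPM, with both TLR9-/- libraries lowest (−0.49 ± 0.22, edgeR adjusted p = 0.536). The difference between these effects was tested in a fit with library, class and class by genotype as terms. It was 1.14 ± 0.21 (edgeR adjusted p = 0.0346), and 0.165% of 10304 genes were called in that comparison. That pair of classes was chosen after the levels of Ltb and Tnfrsf13c had been seen. The call was lost without WT 2 (adjusted p = 0.554), with DESeq2 (0.161), with finer clusters (0.0857) and with marked doublets left out (0.0889). For the pooled B lineage Ltb was 257, 628, 267 and 234 CPM. There B cells were 36.3%, 63.6%, 36.9% and 46.0% of the pool, so TLR9-/- 2, the highest library, also had the largest share of mature cells, and its part in the result was not tested.

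Outside the B lineage the same split was seen. Ltb in T cells was 1068, 1009, 794 and 888 CPM (log2 fold change 0.31 ± 0.20, edgeR adjusted p = 0.915), and in T cells with Cd8a or Cd8b1 UMIs 1002, 1204, 824 and 811 CPM. NK cells had 378, 364, 174 and 262 CPM (0.81 ± 0.29, edgeR adjusted p = 0.907). Neutrophils had 119, 130.5, 80.5 and 93.1 CPM (0.52 ± 0.20, edgeR adjusted p = 0.539). In each of these 3 classes both TLR9-/- libraries lay above both WT libraries. HSPCs, the stem and progenitor class, had 30.2, 37.3, 46.4 and 59.1 CPM (−0.66 ± 0.23, edgeR adjusted p = 0.437). Basophils had 89.5, 89.4, 116 and 157 CPM (−0.60 ± 0.24, edgeR adjusted p = 0.605). In these 2 classes both TLR9-/- libraries lay below both WT libraries. Of 11 classes with enough Ltb UMIs, 4 had both TLR9-/- libraries higher, 3 had both WT libraries higher and 4 overlapped. Of all genes tested in these 11 classes, 32.6% to 40.8% did not overlap, either way. Over all cells the levels overlapped, at 90.9, 104, 113 and 94.3 CPM.

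Shares of cells with an Ltb UMI were read at equal depth. After thinning to 1000 UMIs, 59.3% and 68.0% of TLR9-/- B cells and 49.9% and 44.5% of WT B cells had an Ltb UMI (63.6% ± 6.16 against 47.2% ± 3.86, SD, n = 2). An exact permutation test of 2 against 2 libraries cannot give a p below 0.33, the value found here. In T cells 60.0% and 62.8% against 47.8% and 57.1% had an Ltb UMI, and in erythroid cells 0.733% to 2.03%. In B-cell precursors the shares overlapped, at 2.57% and 5.43% against 3.45% and 5.41%. They also overlapped in neutrophils (13.4% and 15.6% against 9.49% and 14.5%) and in basophils (13.8% and 9.04% against 11.5% and 17.3%). NK cells (24.5% and 26.5% against 12.9% and 17.3%) and HSPCs (3.93% and 3.58% against 7.10% and 6.03%) kept the order of their levels, without overlap. Thinning left out 426, 106, 906 and 346 B cells with fewer UMIs, and without thinning the mean shares in B cells were 66.5% and 52.0%.

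Markers of B cells were read beside Ltb in neutrophils. The B-lineage markers Cd79a, Cd79b, Pax5 and Blnk all had UMIs in neutrophils of every library. Their summed level was 181, 168, 285 and 287 plain CPM, against 6996 to 8269 plain CPM in B cells. These markers were thus lower in TLR9-/- neutrophils, while Ltb was higher there. In basophils, where Ltb was lower in TLR9-/- cells, the same markers summed to 182, 119, 286 and 293 plain CPM. They so lay in the same direction as Ltb, and 3 of the 4 had UMIs in every library. Their part in the basophil value was not tested. These markers were lower in TLR9-/- T cells (178, 245, 408 and 889 plain CPM), where Ltb was higher. They overlapped in HSPCs (124, 177, 219 and 153 plain CPM) and NK cells (84.5, 248, 251 and 234 plain CPM). Neutrophils had 23.9, 28.3, 8.14 and 9.06 Ltb UMIs per Tnfrsf13c UMI, and B cells 3.19, 4.88, 2.63 and 1.99.

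**Figure D2:**
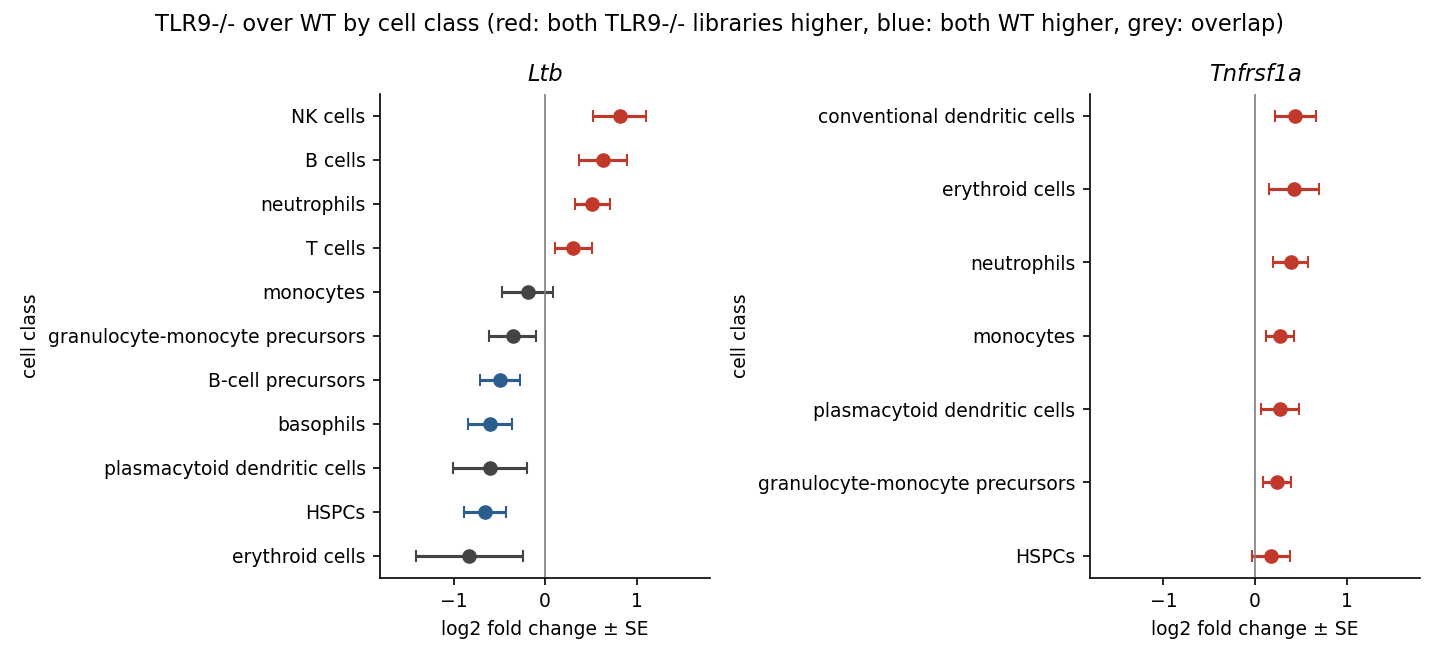
Log2 fold change of Ltb (left) and Tnfrsf1a (right), TLR9-/- over WT, in each cell class with at least 20 UMIs in every library (points, with bars of 1 SE, n = 2 libraries per genotype). Ltb ran from −0.83 in erythroid cells to 0.81 in NK cells, with red and blue points on opposite sides of 0, while all 7 Tnfrsf1a points lay above 0, and no point passed the threshold in edgeR.

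The T-cell ligands were sparse. Cd40lg (ENSMUSG00000031132, chrX:57212143-57224042) had 103, 54, 19 and 8 UMIs over all cells, of which T cells held 98, 48, 17 and 7. T cells therefore had 80.3, 50.6, 38.3 and 24.3 CPM of Cd40lg, with both TLR9-/- libraries above both WT libraries, but WT 1 and WT 2 stood on fewer than 20 UMIs each. Of the other 13 classes of at least 10 cells per library, none had more than 0.406 plain CPM of Cd40lg in any library. At 1000 UMIs per cell, 6.90% and 4.70% of TLR9-/- T cells and 4.30% and 5.36% of WT T cells had a Cd40lg UMI, so these shares overlapped, and 0% of erythroid cells had one.

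Tnfsf8 (ENSMUSG00000028362, chr4:63831308-63861347) had 66, 66, 41 and 34 UMIs in all and 32, 33, 15 and 15 in T cells, at 26.2, 34.8, 33.8 and 52.0 CPM. Its T-cell levels overlapped between genotypes. The next class, conventional dendritic cells, had 4.92 plain CPM on average, against 35.7 in T cells. Granulocyte-monocyte precursors held 15, 16, 4 and 1 Tnfsf8 UMIs.

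Tnfsf11 (ENSMUSG00000022015, chr14:78277445-78308043) had only 26, 17, 11 and 6 UMIs over all cells. B-cell precursors held 7, 2, 4 and 4 of them, T cells 9, 9, 3 and 1, and the few mesenchymal cells (62 in all) 2, 1, 2 and 0. Mesenchymal cells had the highest mean, 18.4 plain CPM with a range from 0 to 39.4, which overlapped that of T cells (6.57, from 3.42 to 9.32). Its T-cell UMIs were too few for a fold change. Its decoy receptor Tnfrsf11b had 0, 0, 2 and 0 UMIs, and the 3 counts that a library at 0 allows equal 0.0469 to 0.0725 plain CPM there.

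Tnfsf13b (ENSMUSG00000031497, chr8:10006467-10039072) was mainly a neutrophil transcript in these libraries. Neutrophils held 248, 415, 113 and 317 UMIs, at 47.3, 45.5, 39.9 and 41.2 CPM (log2 fold change 0.19 ± 0.19, edgeR adjusted p = 0.882). Both TLR9-/- libraries lay above both WT libraries by a small margin. The next class, granulocyte-monocyte precursors, had 4.33 plain CPM on average, against 43.4 in neutrophils, and the ranges did not overlap. Monocytes held 24, 36, 7 and 6 UMIs. Over all cells its levels overlapped, at 6.78, 9.16, 4.81 and 9.63 CPM, and WT 1, the lowest, had the smallest share of neutrophils (8.17%). The part of the neutrophil share in this value was not tested.

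**Figure D3:**
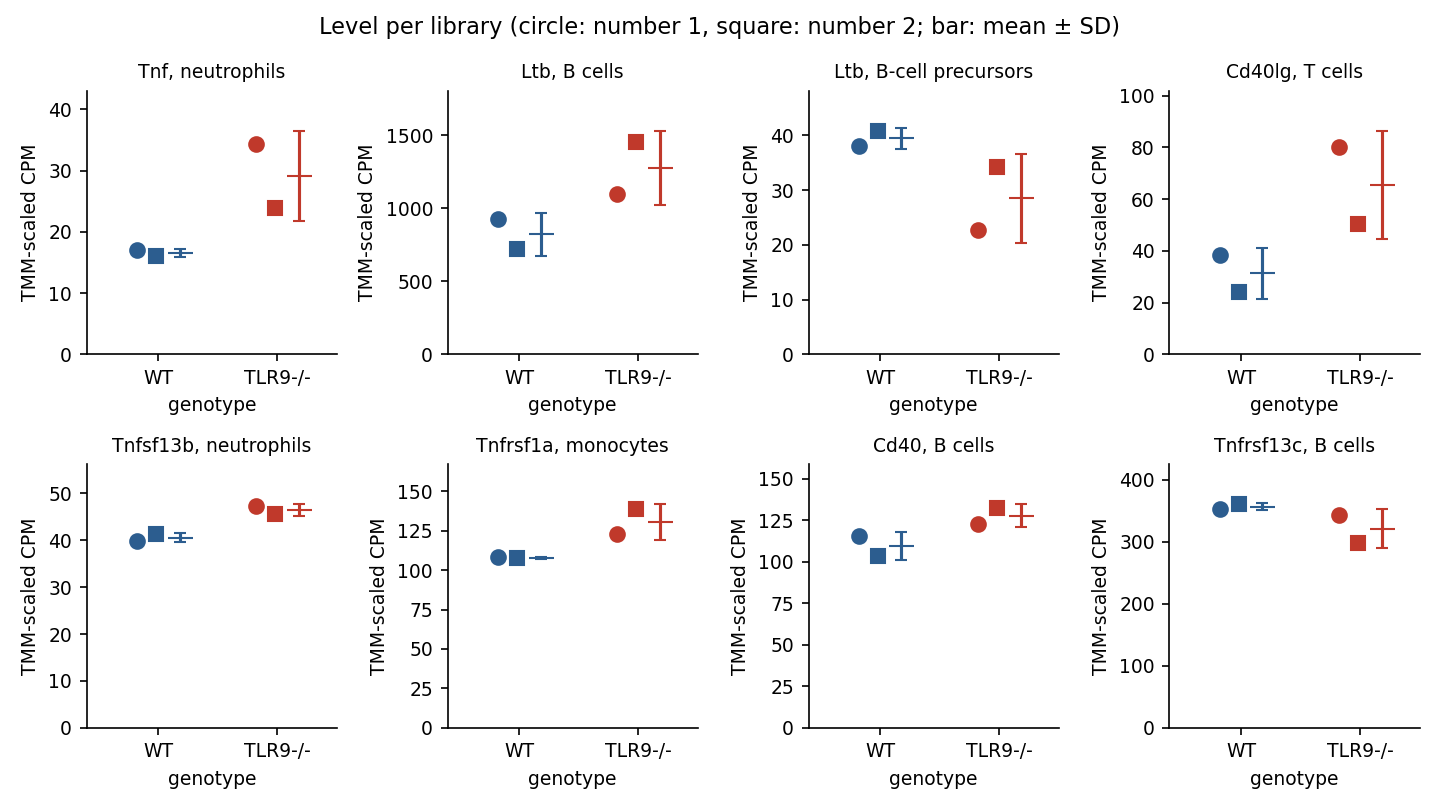
Level of 7 of the genes per library (TMM-scaled CPM, axes from 0) in 8 panels for WT (blue) and TLR9-/- (red), circles for libraries numbered 1 and squares for those numbered 2, with bars for mean ± SD (n = 2). The TLR9-/- libraries lie above the WT libraries for Tnf in neutrophils (34.3 and 23.9 against 17.0 and 16.1) and for Ltb in B cells, and below them for Ltb in B-cell precursors and Tnfrsf13c in B cells.

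Tnfrsf1a (ENSMUSG00000030341, chr6:125349362-125362484) was read in myeloid, dendritic and progenitor classes. Its UMIs numbered 3207, 4762, 1132 and 1711, and its level over all cells was 63.8, 74.4, 36.3 and 41.5 CPM (log2 fold change 0.83 ± 0.16, edgeR adjusted p = 0.133). DESeq2 called it over all cells, at 0.84 with an adjusted p of 0.000613. Within the 7 classes with enough UMIs the differences were smaller. Basophils, with 21, 41, 4 and 1 UMIs, were given no fold change here. Monocytes had 123, 138, 108 and 107 CPM (0.28 ± 0.16, edgeR adjusted p = 0.750). Neutrophils had 94.5, 102, 71.4 and 78.1 CPM (0.39 ± 0.19, edgeR adjusted p = 0.696). Granulocyte-monocyte precursors had 81.6, 94.2, 75.5 and 73.6 CPM (0.24 ± 0.15, edgeR adjusted p = 0.648). In all 7 classes with enough UMIs both TLR9-/- libraries lay above both WT libraries, with log2 fold changes from 0.18 in HSPCs to 0.44 in conventional dendritic cells. Of all genes tested in these 7 classes, 34.3% to 40.8% did not overlap, either way. These 7 include erythroid cells, the class taken as background, at 13.2, 11.0, 10.6 and 7.37 CPM (0.43 ± 0.27, edgeR adjusted p = 0.936). The classes share the same 4 mice and are not independent. Mesenchymal cells had the highest mean, 131 plain CPM, which overlapped that of monocytes at 119, and the range of monocytes lay above that of conventional dendritic cells at 91.4.

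Shares of cells gave less of a difference. At 1000 UMIs per cell, 12.1% and 11.3% of TLR9-/- monocytes and 11.6% and 11.5% of WT monocytes had a Tnfrsf1a UMI, which overlapped. In neutrophils the shares were 10.5% and 10.8% against 7.45% and 9.06%, which did not overlap, and in erythroid cells 0.395% to 1.87%. Plasmacytoid dendritic cells did not overlap either (4.63% and 4.90% against 3.13% and 4.55%). The shares overlapped in conventional dendritic cells (11.0% and 7.11% against 7.14% and 6.72%) and in HSPCs (4.15% and 6.84% against 4.92% and 4.52%). They also overlapped in granulocyte-monocyte precursors (9.05% and 7.05% against 8.01% and 8.08%).

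Tnfrsf1b (ENSMUSG00000028599, chr4:145213463-145246870) was highest in monocytes, whose mean of 62.4 plain CPM lay above that of NK cells (29.02) without overlap. Monocytes had 55.02, 63.3, 55.7 and 75.8 CPM of it, with the genotypes overlapping (log2 fold change −0.15 ± 0.19). Granulocyte-monocyte precursors had 17.0, 18.8, 23.4 and 25.6 CPM, and there both WT libraries were higher (−0.46 ± 0.17, edgeR adjusted p = 0.518). Over all cells the level was 18.6, 18.9, 13.8 and 17.2 CPM (0.27 ± 0.16, edgeR adjusted p = 0.434). Of the TNF receptors, Tnfrsf1a was thus higher in both TLR9-/- libraries of the granulocyte-monocyte precursors and Tnfrsf1b lower. That class mixes granulocyte and monocyte precursors, and the part of its makeup in these values was not tested.

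Cd40 (ENSMUSG00000017652, chr2:165055627-165072948) was mainly a B-cell transcript, with 118 plain CPM on average in B cells and 13.2 in their precursors, and no overlap between them. B cells had 123, 133, 115 and 104 CPM (log2 fold change 0.22 ± 0.22, edgeR adjusted p = 0.999). Over all cells, in contrast, Cd40 was 8.33, 8.52, 14.2 and 12.1 CPM (−0.64 ± 0.16, edgeR adjusted p = 0.172), with both TLR9-/- libraries lower. Monocytes had 10.3, 9.46, 12.6 and 6.69 CPM, which overlapped. At 1000 UMIs, 10.3% and 12.2% of TLR9-/- B cells and 10.7% and 10.3% of WT B cells had a Cd40 UMI, against at most 0.461% of erythroid cells.

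Tnfrsf13c (ENSMUSG00000068105, chr15:82221743-82224369) had the largest log2 fold change over all cells among the 8 genes with at least 20 UMIs in every library. Its level was 21.3, 18.0, 44.2 and 42.4 CPM (log2 fold change −1.14 ± 0.15, edgeR adjusted p = 0.0808), and DESeq2 called it at −1.13 with an adjusted p of 4.69e-07. Within B cells it was 343, 299, 352 and 360 CPM (−0.15 ± 0.23, edgeR adjusted p = 0.999). Within B-cell precursors it was 56.0, 60.7, 52.6 and 54.2 CPM (0.12 ± 0.16, edgeR adjusted p = 0.853). The genotype effect in B cells minus that in their precursors was −0.27 ± 0.18 (edgeR adjusted p = 0.817). Its mean was 337 plain CPM in B cells, 55.8 in precursors and 26.4 in plasmacytoid dendritic cells, and the first of these ranges overlapped neither of the others.

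In neutrophils Tnfrsf13c was at 4.96, 4.61, 9.89 and 10.3 CPM (26, 42, 28 and 79 UMIs), with a log2 fold change of −1.08 ± 0.28 (edgeR adjusted p = 0.219). The 4 B-lineage markers lay in the same direction there, with a summed 285 and 287 plain CPM in WT and 181 and 168 plain CPM in TLR9-/- neutrophils. The part of these markers' RNA in the Tnfrsf13c value was not tested. At 1000 UMIs per cell, 0.431% to 0.876% of neutrophils had a Tnfrsf13c UMI, against 0.122% to 0.987% of erythroid cells, so the neutrophil share lay within background.

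Counts of genes whose genotypes did not overlap were read against all genes. In neutrophils 6 of the 7 tested members did not overlap, 4 of them higher in TLR9-/- libraries, against 37.4% of all genes. In T cells it was 5 of 6 against 36%, but only 1 of these 6 had 20 UMIs in every library. In B cells it was 3 of 5 against 32.6%, in monocytes 3 of 7 against 38%, and over all cells 6 of 10 against 51.1%. It was 0 of 6 in the pooled B lineage (35%), 2 of 5 in B-cell precursors (40.2%), 2 of 6 in erythroid cells (34.3%), 3 of 8 in granulocyte-monocyte precursors (40.8%) and 3 of 4 in HSPCs (40%). It was 1 of 3 in NK cells (35.9%), 2 of 3 in basophils (38.3%), and 2 of 5 in plasmacytoid (36.7%) and in conventional dendritic cells (34.8%). Most of these counts stood near or below the background. These genes were chosen with earlier results of these data known, so the counts carry no test.

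Levels over all cells depend on which cells a library held, so the mean over cells of the UMIs per 10000 UMIs of a cell was taken in each class and weighted by 1 fixed makeup, the mean of the 4 libraries. For Tnfrsf13c the log2 ratio of TLR9-/- over WT was −0.66 as observed and −0.01 at the fixed makeup. For Tnfrsf1a it was 0.88 and 0.26, for Tnf 0.95 and 0.35, and for Cd40lg 2.14 and 0.78. For Cd40 it was −0.33 and 0.25, for Tnfrsf1b 0.44 and −0.12, for Tnfsf13b 0.45 and −0.08, and for Tnfsf8 0.59 and −0.43. These 4 genes thus lay on opposite sides of 0 before and after. Ltb went the other way, from 0.32 to 0.49. Its observed value counts every cell alike and lay opposite in sign to the fold change of summed UMIs (−0.09 ± 0.16), so its direction over all cells depended on the scaling. Tnfsf11 moved from 1.29 to 0.73. At the fixed makeup Ltb, Cd40lg, Tnfrsf1a and Cd40 did not overlap with TLR9-/- higher, and Tnfsf8 did not overlap with WT higher. The other 5 overlapped. Cd40lg rested on 19 and 8 WT UMIs over all cells, and Tnfsf11 on 11 and 6. Tnfsf8 had 15 and 15 UMIs in WT T cells. Exact two-sided permutation tests gave p from 0.333 to 1 (0.667 to 1 adjusted over the 10 genes), and no p below 0.33 was possible.

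**Figure D4:**
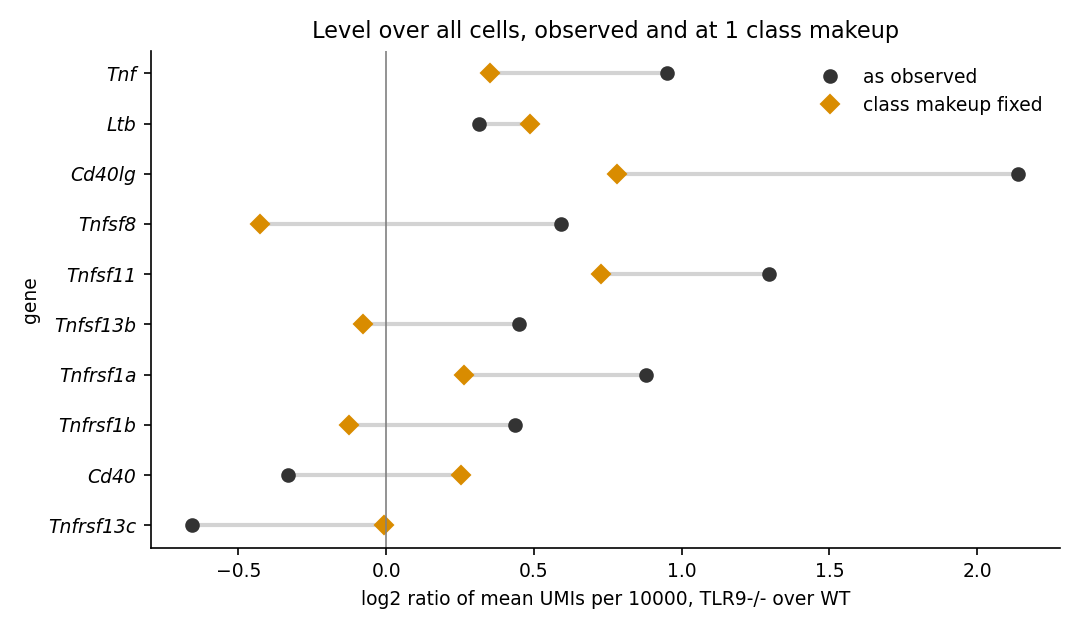
Log2 ratio of the mean UMIs per 10000, TLR9-/- over WT (horizontal axis, n = 2 libraries per genotype), for the 10 genes over all cells as observed (circles) and with the makeup of cell classes held fixed (diamonds), joined by grey lines. Tnfrsf13c moves from −0.66 to −0.01 and Tnfrsf1a from 0.88 to 0.26, while Ltb moves from 0.32 to 0.49.

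Ligands were then set beside their receptors, as the study inferred signals between cell types. Each of 12 pairs was given 1 value per library. It was the mean of the log2(plain CPM + 1) of the ligand in its source and of the receptor in its target. Cd40lg in T cells with Cd40 in B cells had the largest difference among the 12, 6.63 and 6.35 against 6.02 and 5.69 (6.49 ± 0.20 against 5.85 ± 0.23, SD, n = 2). After TMM scaling, which the pair values do not use, Cd40lg in T cells was at 80.3, 50.6, 38.3 and 24.3 CPM. Cd40 in B cells was then at 123, 133, 115 and 104 CPM. Ltb in B cells with Ltbr in the monocyte lineage differed by 0.46 and Ltb in T cells with Ltbr by 0.31. Tnf in T cells with Tnfrsf1a in the monocyte lineage differed by 0.45, and with Tnfrsf1b by 0.25. Tnfsf13b of neutrophils with Tnfrsf13c of B cells differed by −0.02, and Tnfsf13b of the monocyte lineage with Tnfrsf13c by 0.25. Tnfsf11 with Tnfrsf11a of the monocyte lineage overlapped whether the ligand was taken from T cells or from the B lineage. Tnfsf8 with Tnfrsf8 in T cells had no receptor to measure, as T cells held 0 Tnfrsf8 UMIs in all 4 libraries. In 10 of 12 pairs the TLR9-/- mean was higher, and 6 of these 12 did not overlap, beside 32.6%, 36% and 38% of single genes in B cells, T cells and monocytes. The pairs reuse the same genes and are not independent. In 9 of the 12, among them 4 of the 6 that did not overlap, the ligand had under 20 UMIs in some library. Exact two-sided permutation tests gave p from 0.333 to 1 (0.667 to 1 adjusted over the 12 pairs).

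**Figure D5:**
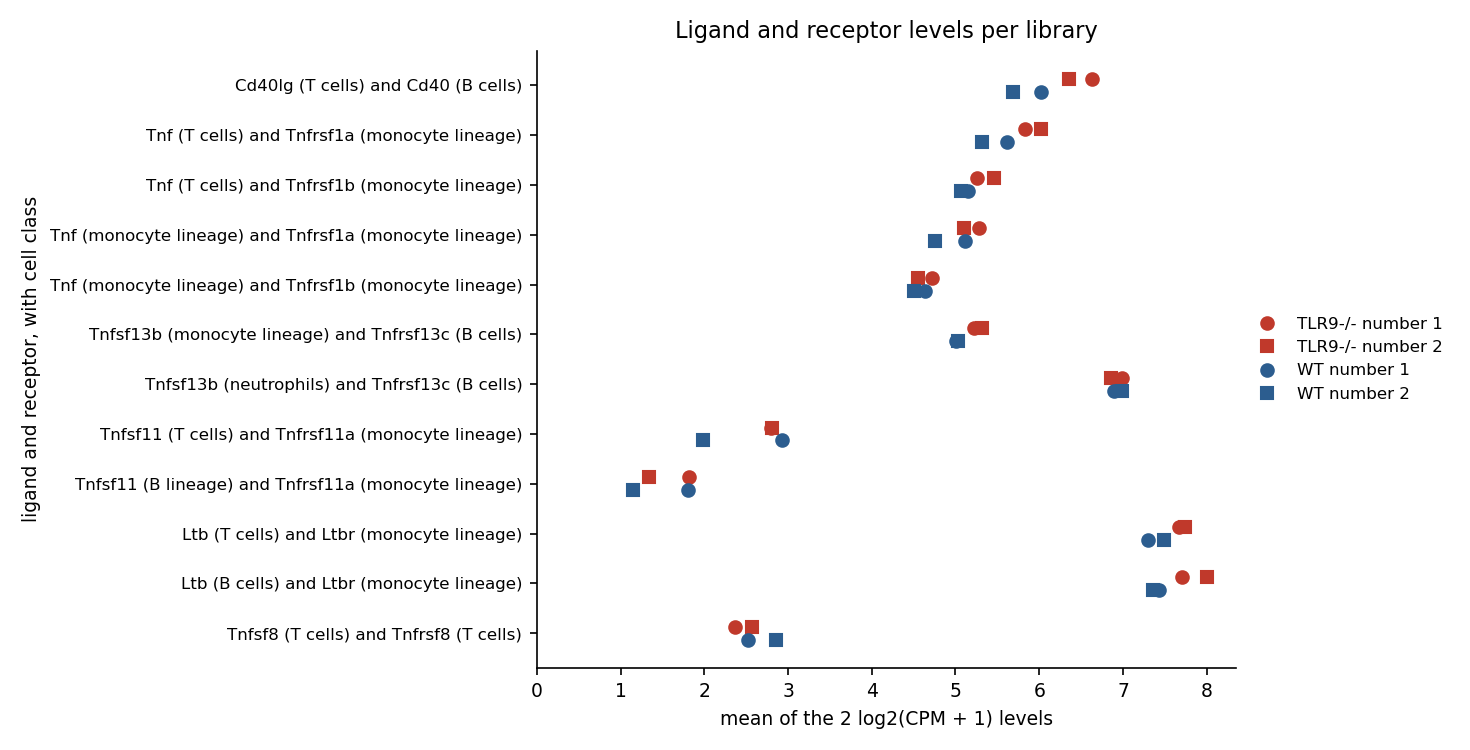
Mean of the ligand's and the receptor's log2(plain CPM + 1) (horizontal axis) for 12 pairs of a ligand in its source class and a receptor in its target class (rows), with 1 point per library, red for TLR9-/- and blue for WT, circles for number 1 and squares for number 2. Both TLR9-/- points of Cd40lg with Cd40 (6.63 and 6.35) lie to the right of both WT points (6.02 and 5.69), while those of Tnfsf13b of neutrophils with Tnfrsf13c overlap.

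Genotype effects were compared between further classes by the same interaction fit. None of the 10 genes was called between B and monocyte lineage (0.583% of all genes called), between T cells and B lineage (0.353%), between T cells and monocyte lineage (0.426%) or between monocyte lineage and neutrophils (0.883%). Ltb came nearest to a call, with an effect 0.91 ± 0.21 higher in the B lineage than in the monocyte lineage (edgeR adjusted p = 0.0641).

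Other members of the pathway were read from a list of 67 genes with 12 ligands, 24 receptors and 31 signalling genes. None was called in any edgeR fit, and 60 were tested over all cells. There 5 of 8 ligands, 12 of 21 receptors and 11 of 31 signalling genes were higher in TLR9-/- cells, with medians of 0.56, 0.08 and −0.22 beside −0.02 over all genes. DESeq2 called 5 of them over all cells, with Cd27, Ltbr and Tnfsf13 higher and Tnfrsf19 and Birc3 lower in TLR9-/- cells. Tnfsf13, the ligand APRIL, had 56.4, 62.8, 32.5 and 31.0 CPM over all cells (log2 fold change 0.91 ± 0.14, edgeR adjusted p = 0.0966). Ltbr, the lymphotoxin beta receptor, had 18.7, 22.6, 9.803 and 12.6 CPM (0.88 ± 0.19, edgeR adjusted p = 0.151). Both are carried mainly by the granulocyte-monocyte precursors and monocytes, which held 46.5% and 33.1% of Tnfsf13 UMIs and 34.5% and 29.1% of Ltbr UMIs on average. Within these classes the log2 fold changes were smaller, at 0.12 ± 0.15 and 0.18 ± 0.16 for Tnfsf13 and 0.11 ± 0.18 and 0.31 ± 0.17 for Ltbr. Both classes made up a larger share of the TLR9-/- libraries. In conventional dendritic cells Tnfsf13 differed by 2.05 ± 0.48 (edgeR adjusted p = 0.420) on 40, 50, 8 and 2 UMIs. In HSPCs it differed by 1.53 ± 0.38 (edgeR adjusted p = 0.178) on 53, 63, 5 and 9 UMIs. Ltbr in conventional dendritic cells differed by 0.80 ± 0.34 (edgeR adjusted p = 0.966) on 45, 49, 10 and 15 UMIs. Tnfrsf13b, the receptor TACI, had 63.0, 68.9, 76.2 and 81.0 CPM (−0.25 ± 0.14). Tnfrsf17, the plasma-cell receptor BCMA, had 73, 85, 39 and 60 UMIs, of which plasma cells held 45, 50, 24 and 41. Tnfrsf11a had 65, 58, 47 and 23 UMIs, of which monocytes held 39, 31, 24 and 8. Lta had 49, 54, 45 and 40 UMIs, mostly in B cells, Fasl 98, 46, 32 and 11, mostly in NK cells and T cells, and Tnfrsf8 20, 36, 17 and 15.

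The genes whose log2 levels ran most like each member over 14 classes were found by Pearson correlation among genes above 5 plain CPM in some class. The classes share libraries and depth, so r is a description. For Cd40lg they were Trav14-2, Gm19261 and Dapl1 (r of 0.999 for each), for Tnfsf8 Aqp3 and Trav13-4-dv7 (0.949 and 0.923), and for Tnfsf11 Sp6, Tmie and Lrrc17 (0.978 to 0.959). For Ltb they were Zfp831, Gm30054 and Rhof (0.916 to 0.896) and for Tnf Mppe1, Arhgap9 and Arhgef4 (0.919 to 0.892). Tnfsf13b ran with Siglece, Slfn4 and Fpr2, a formyl peptide receptor of neutrophils (0.937 to 0.920). Tnfrsf13c ran with Cd79b, a chain of the B-cell receptor complex, Igkv4-69 and Ralgps2 (0.937 to 0.915). Cd40 ran with Igkv3-10 and Gm13383 (0.857 for each). Tnfrsf1a ran with Jdp2, Rnf149 and Tbkbp1 (0.916 to 0.907) and Tnfrsf1b with Fam234a, Hpcal1 and Rap2a (0.955 to 0.916).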

How the data were processed

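Bone marrow cells of 2 TLR9-/- and 2 WT mice were captured on the 10x Chromium 5′ platform. Per the methods and labels, the authors aligned reads to mm10 with Cell Ranger (version 3.0.1 in the file header) and STAR, and used Seurat 2.3.4. The deposited matrices hold raw UMI counts per gene and called cell of each library, before the authors scaled libraries to equal depth.

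Here cells with 200 to 10000 genes and at most 10% mitochondrial UMIs were kept (the methods print 0.10%, read as a fraction). They were clustered with scanpy 1.11.5 on 2000 variable genes, from which the 10 genes and the 67 pathway genes were left out, with 30 principal components and Leiden resolution 1 (29 clusters). Clusters were named by fixed markers among their 10 leading genes, with at least 3 detected and more for longer lists. Where too few markers were among these genes, the mean scaled level of each list's markers decided instead. That was so for 1 cluster of 2871 B-cell precursors, which had 1 marker among them. Doublets were marked by Scrublet's procedure (291, 418, 346 and 633 cells) and kept in the main analysis. In WT 2 its threshold marked too few cells, so the highest scores were marked at a set rate instead (7.12% of cells). The counts are therefore not comparable between WT 2 and the other libraries. The names were rebuilt here and may differ from those of the study. 1 cluster was led by granulocyte precursor markers, of which 4 are also on the monocyte precursor list. At Leiden resolution 2 this class held clusters of 1218 and 619 cells named by granulocyte precursor markers. A further 776 cells (352, 234, 99 and 91) were named by monocyte precursor markers. The class was kept as 1 of its own, outside both pools. The planned precursor pools thus hold monocytes with macrophages (monocyte lineage) and neutrophils alone.

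UMIs were summed per library and class and tested with edgeR 4.0.16 (filterByExpr, TMM, quasi-likelihood), with DESeq2 1.42.0 as an alternative. Classes with under 10 cells in any library (macrophages, megakaryocyte lineage, CD4 T cells) were not tested. On simulated counts with 200 changed genes, the test recovered 194 over all cells (14194 genes). It recovered 186 in B cells (9328 genes) and 178 in T cells (6608 genes). Each run had 9 false calls. Every changed gene was shifted 4-fold, up or down. All genes of a run were given the same dispersion, the median of the real genes, and no difference between experiments was built in. These counts thus hold for that size of change and that spread only. Recovery at the log2 fold changes of the 10 genes was not tested. Single values were compared by exact permutation tests over libraries. Shares used cells thinned to 1000 UMIs. Other settings covered scaling, the count filter, the tool, clusters, doublets, shallow cells, each library left out and a block for the library number. All 10 genes are named. Pathway genes are named where they passed the threshold or are direct partners, and like-pattern genes as those among the 3 highest correlations, of which some are not reported here. The genes and lists were chosen with earlier results of these data known, and 1 pair of classes (B cells against their precursors) and the levels of Ltb in single B-cell clusters were added after seeing the data.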

Additional observations from a re-analysis of the deposited data

Results flagged for a closer look

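These 2 results are given because their genotype effects pointed in opposite directions in different classes, with every library of a genotype on the same side. For Ltb, the log2 fold change in NK cells (0.81 ± 0.29) minus that in HSPCs (−0.66 ± 0.23) was 1.47. Both TLR9-/- libraries were higher in NK cells and both were lower in HSPCs, and the difference between these classes was not tested. The related difference between B cells and B-cell precursors was tested and is given with the Ltb levels above. For Tnfrsf13c, the log2 fold change in B-cell precursors (0.12 ± 0.16) minus that in neutrophils (−1.08 ± 0.28) was 1.21, and it was not tested either. The 4 B-lineage markers in neutrophils summed to 181, 168, 285 and 287 plain CPM, and their part in the Tnfrsf13c value was not tested.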

How the results depend on the processing

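With edgeR, 0 calls of a member over the 18 fits became 4 without the count filter, 2 with DESeq2 and 7 with a replicate block, and ranged from 0 to 1 with 1 library left out. For the 67 pathway genes the 0 calls became 5, 5 and 15, and ranged from 0 to 3. DESeq2 called 5.98% of all genes over all cells. The shares of all genes called in the other settings are not given here, so these counts have no background beside them. For the 4 pairs of classes the 0 calls of a difference became 2 without the filter and 2 with Leiden resolution 2. They ranged from 0 to 3 with 1 library left out. The calls in the first 2 settings lay between B and monocyte lineage, where 185 of 17728 and 75 of 11740 genes were called. With B cells against B-cell precursors as a further pair, added after seeing the data, the main fit had 1 call. The single calls with 1 library left out were Ltb in the B lineage without TLR9-/- 1 (1.33, adjusted p = 0.000102) and Ltb in erythroid cells without WT 2 (−1.49, adjusted p = 0.0142).

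The labels number the libraries 1 and 2 in each genotype but do not say that the numbers mark the experiments. Deviations of same-numbered libraries correlated at 0.323 over all cells, 0.309 in the B lineage and 0.196 in T cells, but with 2 pairs the numbers were not taken as pairing. The files held 11069, 9173, 11108 and 9195 cells before filtering, so the number of cells also went with the library number. If the numbers mark the experiments, the main fits leave that pairing out. The replicate block called Cd40, Tnfrsf1a, Tnfrsf13c and Tnf over all cells (log2 fold changes −0.64, 0.83, −1.14 and 0.70, edgeR adjusted p from 0.0119 to 0.0495). It also called Cd40lg there (edgeR adjusted p = 0.0374) on 19 and 8 WT UMIs, and Ltb in B cells (0.63, edgeR adjusted p = 0.0341). Tnfrsf1a in basophils was called as well (2.03, edgeR adjusted p = 0.0318), on 4 and 1 WT UMIs. The share of all genes that the block called is not given here.

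Of 35 log2 fold changes, none turned sign under RLE scaling, DESeq2, no filter, the block, finer clusters or doublets left out. Ltb over all cells turned from −0.09 to 0.019 with only cells of at least 1000 UMIs. With 1 library left out, values ran from −0.028 to 0.63 for Cd40 in B-cell precursors, −1.12 to 0.45 for Ltb in plasmacytoid dendritic cells, −0.60 to 0.077 for Ltb in granulocyte-monocyte precursors, −0.35 to 0.57 for Cd40 in monocytes, −0.35 to 0.10 for Tnfrsf1b in monocytes, −0.60 to 0.14 for Ltb in monocytes, −0.17 to 0.51 for Tnfsf8 in all cells, −0.26 to 0.73 for Tnfsf13b in all cells and −0.22 to 0.058 for Ltb in all cells. None of these passed the threshold, and the cause was not tested. Low counts limited the T-cell ligands. Cd40lg, Tnfsf8 and Tnfsf11 had under 20 UMIs in T cells of both WT libraries and were given no fold change there.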
